A study of Mus musculus with 2 samples.

Results

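The pseudouridine synthases are the enzymes that turn uridine into its isomer pseudouridine inside finished RNA chains. A set of 10 of their genes, Pus1, Pusl1, Pus3, Pus7, Pus7l, Pus10, Trub1, Trub2, Rpusd3 and Rpusd4, were taken from the 56748 genes of each matrix by symbol, and all 10 were found once. They were chosen by the ratio of Pusl1 between the genotypes, which was raised in several classes of knockout cells in these same libraries. The ratios between genotypes below are therefore a description of the contrast that chose them, and no test was made on them. Bone marrow of C57BL/6 mice was depleted of lineage-positive cells and measured by droplet single-cell RNA sequencing of 3′ tags, in 1 library of Nat10 conditional knockout (cKO) mice and 1 library of wild-type (WT) mice. Per the series text the cells came from 5 WT or Nat10 cKO mice, and the barcodes carry no mark of the mouse they came from, so mice were not used as replicates. The Cre line, the deleted part of Nat10 and the animals' age are not stated in the labels used here. With 1 library per genotype, a difference between the libraries can be a difference between genotypes or between preparations, and these cannot be told apart.

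Pseudouridine pairs and stacks slightly differently from uridine and is found in transfer RNA, ribosomal RNA, spliceosomal RNA and some messenger RNA. Stand-alone synthases read a sequence or a fold in their target, whereas dyskerin (Dkc1) is led to its target by H/ACA guide RNAs. Pus1, Pusl1 and Pus3 belong to the TruA family, Trub1 and Trub2 to the TruB family, Pus7 and Pus7l to the TruD family and Rpusd3 and Rpusd4 to the RluA family, while Pus10 forms a family of its own. In human patients, loss of PUS1 causes a myopathy with sideroblastic anaemia, an anaemia in which erythroid precursors load iron into mitochondria. In human blood stem and progenitor cells, PUS7 modifies small fragments of transfer RNA that restrain protein synthesis. Nat10 encodes the acetyltransferase that makes N-acetylcytidine in ribosomal, transfer and messenger RNA, another modification laid down on many of the same RNAs.

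The promoter windows of 3 members are shown here because they come from the member with the highest ratio (Pusl1), its relative in the TruA family (Pus1) and the member with 2 copies of the motif (Rpusd4). Each window runs from 250 bases before to 50 bases after the annotated start in RefSeq, build GRCm38.p6, and capitals mark CACGTG, the E-box that MYC with its partner MAX, among other factors, can bind. Pusl1 lies at chr4:155891713-155892012 on the minus strand, Pus1 at chr5:110780566-110780865 on the minus strand and Rpusd4 at chr9:35267631-35267930 on the plus strand.
Pusl1: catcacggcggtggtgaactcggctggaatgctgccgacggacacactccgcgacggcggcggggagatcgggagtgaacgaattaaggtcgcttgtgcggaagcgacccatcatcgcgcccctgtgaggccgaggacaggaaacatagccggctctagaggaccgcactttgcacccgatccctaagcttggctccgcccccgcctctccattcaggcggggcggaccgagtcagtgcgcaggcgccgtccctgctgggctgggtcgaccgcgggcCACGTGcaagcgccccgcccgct
Pus1: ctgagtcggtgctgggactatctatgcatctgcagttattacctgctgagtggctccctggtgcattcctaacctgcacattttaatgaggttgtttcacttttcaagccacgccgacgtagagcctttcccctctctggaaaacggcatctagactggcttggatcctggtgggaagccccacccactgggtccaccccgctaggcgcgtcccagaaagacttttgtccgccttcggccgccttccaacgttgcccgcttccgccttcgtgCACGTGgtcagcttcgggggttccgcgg
Rpusd4: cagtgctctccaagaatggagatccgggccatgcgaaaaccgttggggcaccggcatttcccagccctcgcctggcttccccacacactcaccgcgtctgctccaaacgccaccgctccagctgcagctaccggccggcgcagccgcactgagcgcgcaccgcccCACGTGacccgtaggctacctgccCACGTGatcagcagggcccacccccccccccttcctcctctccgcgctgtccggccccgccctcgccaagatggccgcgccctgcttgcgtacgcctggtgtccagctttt
The motif reads the same on both strands. It begins at base 278 of the Pusl1 window and at base 273 of the Pus1 window, both counted from 1 at the 5′ end and both within the 50 bases after the start. In the Rpusd4 window it begins at bases 166 and 190. All 10 members had an entry in the table, and 5 of them (Pus1, Pus3, Pus7, Pusl1 and Rpusd4) held CACGTG in at least 1 window, beside 8.09% of 27025 genes in the table and 7.15% of its 32851 windows. The genes of the table were not limited to those measured in these libraries, and some members have more than 1 window. These shares are therefore not a matched background, and no enrichment is read from them. A match describes these letters only, and no binding was measured.

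The deposited matrices held 13479 barcodes and 271499717 UMIs (unique molecular identifiers, one per captured RNA molecule) in the cKO library, and 15848 barcodes and 288303275 UMIs in the WT library. Barcodes below 1000 UMIs or 500 genes, or above 10% mitochondrial UMIs, were dropped. This kept 11239 cKO and 12537 WT barcodes, and 10695 cKO and 11945 WT cells remained once called doublets were removed. Median depth was 21450 UMIs per cell in the cKO library and 18315 in the WT library, and 37 kept barcodes occurred in both. Clusters were named from marker genes as "-like" classes, and 11 classes had at least 100 cells in each library. Erythroid progenitor-like cells made up 33.8% of cKO and 19.8% of WT cells, and HSC/MPP-like cells (haematopoietic stem cells and multipotent progenitors) 1.98% of cKO and 4.50% of WT cells. Classes of committed cells were present as well. Erythroblast-like cells made up 11.3% of cKO and 12.1% of WT cells, T/NK/ILC-like cells 3.22% of cKO and 2.70% of WT cells, and plasma-like cells 1.27% of cKO and 2.23% of WT cells. The labels used here do not name the antibodies of the depletion. Nat10 itself stood at 38.7 CPM (the UMIs of a gene over all UMIs of the cells summed, in the usual CPM scale) in the cKO library and 47.0 CPM in the WT library, a log2 ratio of −0.28, and in HSC/MPP-like cells at 30.4 CPM in cKO and 40.8 CPM in WT cells. The all-cell ratio of −0.28 also takes in the mix of classes. Within classes the Nat10 ratio ranged from −1.20 in conventional dendritic-like to −0.11 in erythroblast-like cells. It was −0.55 in erythroid progenitor-like and −0.42 in HSC/MPP-like cells. Nat10 tags were thus lower but well above 0 in the cKO library. Whether the tags lie inside the deleted part is not given, so they do not check the genotype.

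Over all kept cells, 1 of the 10 synthase genes, Pusl1, was past a log2 ratio of 0.5 on the higher side, beside 6.20% of the 19008 genes that reached 100 UMIs over both libraries. On the lower side none of the 10 was past that fold, beside 15.7% of all genes. A ratio here is the log2 of the cKO over the WT level, and its bracketed range is a 95% interval that covers counting error only, not the spread between mice. Pusl1 was at 24.2 CPM in the cKO library and 12.3 CPM in the WT library, a log2 ratio of 0.98 (0.91 to 1.04). Pus7l was at 10.9 CPM in cKO and 8.12 CPM in WT cells (0.42, 0.34 to 0.50), Pus1 at 44.5 CPM in cKO and 33.5 CPM in WT cells (0.41, 0.37 to 0.45), and Rpusd3 at 5.96 CPM in cKO and 4.76 CPM in WT cells (0.32, 0.21 to 0.43). Trub1 and Rpusd4 followed at 0.19 and 0.17, and Pus3 at 0.09. Pus7, Trub2 and Pus10 stood close to even, at 73.3 CPM in the cKO and 73.5 CPM in the WT library for Pus7, 25.3 CPM in cKO and 25.4 CPM in WT cells for Trub2, and 54.0 CPM in cKO and 56.6 CPM in WT cells for Pus10. The sign of these 3 turned with the scaling: their ratios ran from −0.18 to 0.16, from −0.13 to 0.09 and from −0.18 to 0.10 over the alternatives tried. Over all genes the median ratio was −0.11 and 37.8% of genes were above 0, so that the even level of Pus7 corresponded to percentile 61.7 of all genes. The median of the 10 synthase genes was 0.18, and 7 of the 10 were above 0.

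**Figure D1:**
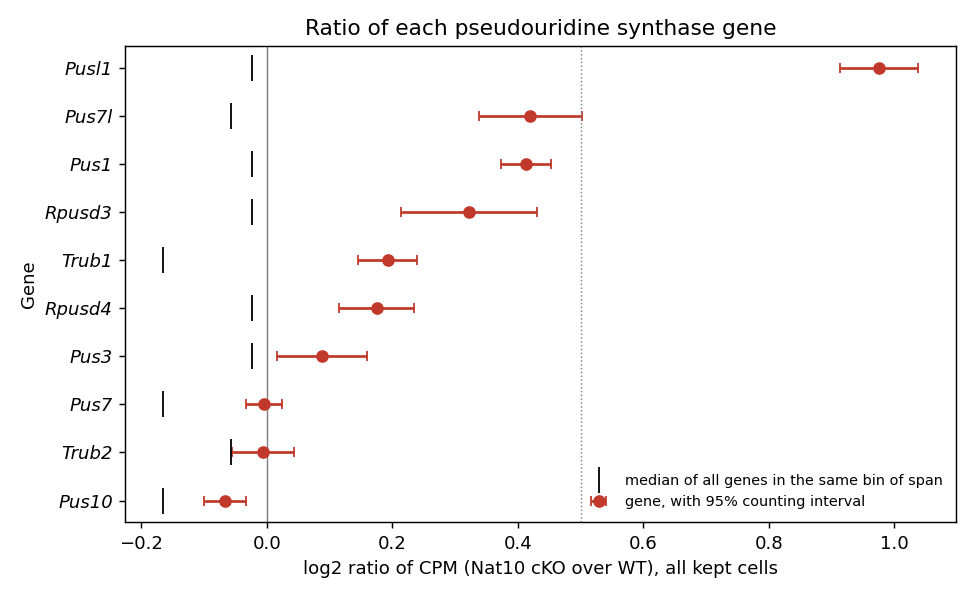
Log2 ratio of the Nat10 cKO over the WT library for each of the 10 genes in all kept cells (points, with 95% intervals of counting error), the median of all genes in the same bin of gene span (black ticks), even level (solid line) and the fold of 0.5 (dotted line). Pusl1 lies at 0.98, and the other 9 genes lie between −0.07 and 0.42.

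Pusl1, a TruA-family protein whose human counterpart is found in mitochondria, had the higher level in the cKO library in each of the 6 classes where it reached 100 UMIs. Erythroid progenitor-like cells held 30.4 CPM in the cKO library and 18.0 CPM in the WT library (0.76, 0.68 to 0.85). GMP-like cells, the precursors of granulocytes and monocytes, held 25.5 CPM in cKO and 14.2 CPM in WT cells (0.85, 0.71 to 0.99), and monocyte-like cells 21.0 CPM in cKO and 12.5 CPM in WT cells (0.75, 0.54 to 0.95). In these 3 classes the counting intervals of the cKO and the WT level did not overlap. Megakaryocyte-like cells held 24.4 CPM in the cKO and 12.2 CPM in the WT library (0.998, 0.63 to 1.39), HSC/MPP-like cells 15.5 CPM in cKO and 8.48 CPM in WT cells (0.88, 0.45 to 1.30), and erythroblast-like cells 6.04 CPM in cKO and 3.26 CPM in WT cells (0.89, 0.49 to 1.29). The HSC/MPP-like values rest on 90 UMIs in the cKO and 103 UMIs in the WT library, and in these 3 classes too the intervals of the levels were apart. Among genes measured in a class, Pusl1 stood at percentile 99.2 in erythroid progenitor-like, 99.4 in GMP-like, 99.6 in HSC/MPP-like and 97.8 in megakaryocyte-like cells. In the other 5 classes Pusl1 had under 100 UMIs. Its ratio there ranged from −0.38 in plasma-like cells (10 UMIs in the cKO and 11 in the WT library) to 1.31 in conventional dendritic-like cells (22 UMIs in the cKO and 23 in the WT library), and the dendritic value was the only one of the 5 whose interval stayed above 0.

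**Figure D2:**
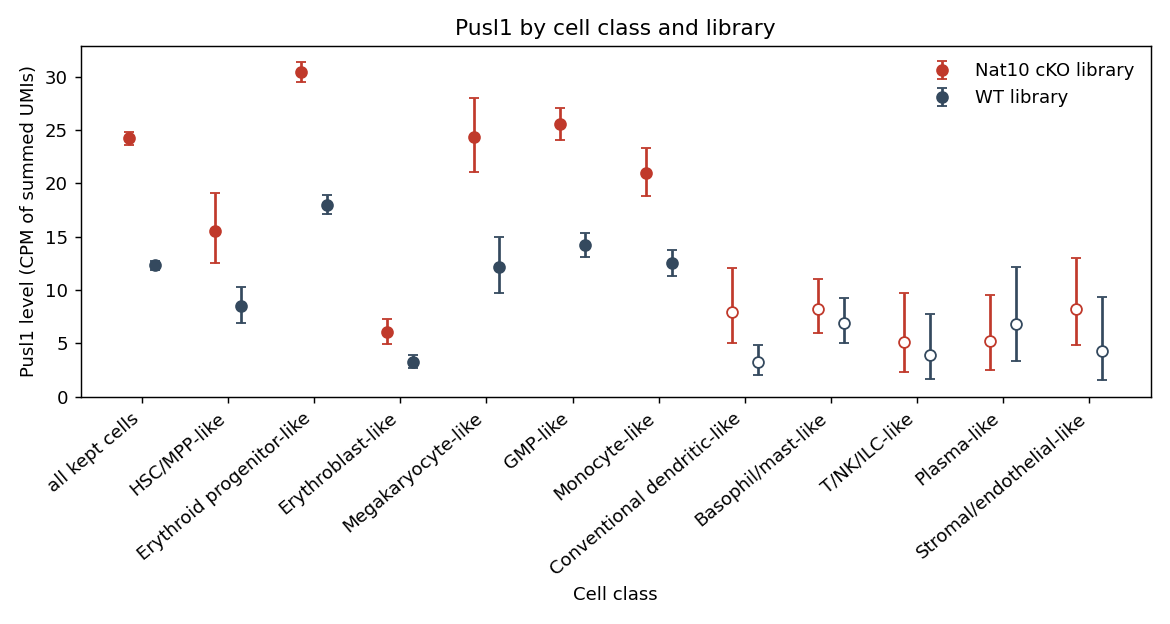
Pusl1 level in CPM of summed UMIs (vertical axis, with exact Poisson 95% intervals) in all kept cells and in 11 cell classes (horizontal axis), the Nat10 cKO library in red left of the WT library in dark blue; open points mark classes with under 100 UMIs over both libraries. The cKO level lies above the WT level in all 6 filled classes, from 30.4 CPM in the cKO against 18.0 CPM in the WT library in erythroid progenitor-like cells to 6.04 CPM in the cKO against 3.26 CPM in the WT library in erythroblast-like cells.

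The all-cell ratio of Pusl1 joins the ratio within classes with the mix of classes, since Pusl1 was highest in erythroid progenitor-like cells and these were a larger share of the cKO library. With the cKO cells weighted to the WT mix of clusters the all-cell ratio was 0.74. Within single clusters, Pusl1 could be measured in 13, and the ratio was above 0 in all 13 and past 0.5 in 12 of them. The exception was a GMP-like cluster with 324 cKO and 66 WT cells, at 25.0 CPM in the cKO and 23.3 CPM in the WT library (0.09, −0.35 to 0.57). The largest cluster of GMP-like cells differed between the 2 libraries, with 41.7% of them from cluster 27 in the cKO and 48.6% from cluster 20 in the WT library. Both clusters held cells of both libraries, cluster 27 with 549 cKO and 346 WT cells and cluster 20 with 355 cKO and 655 WT cells. Erythroid progenitor-like cells had cluster 11 (25.2%) as their largest cluster in the cKO and cluster 12 (25.0%) in the WT library, where cluster 11 was nearly as large (583 against 592 WT cells). Pusl1 was at 35.5 CPM in the cKO and 24.2 CPM in the WT library inside the first and at 27.0 CPM in cKO and 17.6 CPM in WT cells inside the second. For GMP-like cells, inside cluster 27 Pusl1 was at 26.2 CPM in the cKO and 14.4 CPM in the WT library, and inside cluster 20 at 26.8 CPM in cKO and 12.8 CPM in WT cells. Ratios in these libraries also moved with gene span, with a median of −0.02 for genes of 3 to 10 kb and −0.17 for genes of 30 to 100 kb over all kept cells. Pusl1 spans 3.90 kb, and against the median of its span bin its ratio was 1.0 over all kept cells and 0.68 to 0.82 in the 6 classes.

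Genes beside Pusl1 gave a local measure. Ints11, which encodes the catalytic subunit of the Integrator complex, overlaps Pusl1 on the opposite strand, and no label states the strand setting of the counting, so reads of the overlap cannot be assigned with certainty. Ints11 was at 35.3 CPM in the cKO and 32.1 CPM in the WT library (0.14, 0.09 to 0.18). On the other side Acap3 stood at 13.95 CPM in cKO and 14.2 CPM in WT cells, and Ube2j2 at 87.2 CPM in cKO and 82.3 CPM in WT cells. Among the 9 neighbours with at least 100 UMIs, C1qtnf12 (0.59) and the scarce Mxra8 (1.03, at 0.804 CPM in the cKO and 0.392 CPM in the WT library) were past 0.5, and the other 7 lay between −0.08 and 0.20. These are ratios over all kept cells, so they also take in the mix of classes. C1qtnf12 was a leading gene of the erythroid progenitor-like clusters 13, with 868 cKO and 244 WT cells, and 12, with 755 cKO and 592 WT cells. The part of the mix in its ratio was not tested. Among genes with a full name, overlapping partners of other members were Hyls1 for Pus3 (0.09), Pex13 for Pus10 (0.11) and Coq4 for Trub2 (0.44), and predicted gene models also overlap Pus1, Trub1, Trub2 and Rpusd3.

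The counts of synthase genes past the fold in each class are given beside the share of all genes measured there. In HSC/MPP-like cells 1 of 9 measured members (Pusl1) was higher and none lower, beside 6.01% and 15.8% of all genes. In erythroid progenitor-like cells it was 1 of 10 (Pusl1) and none, beside 2.20% and 7.1%, and in erythroblast-like cells 1 of 9 (Pusl1) and none, beside 4.58% and 2.30%. Megakaryocyte-like cells had 3 of 9 higher (Pus1, Pus7l and Pusl1) and none lower, beside 10.1% and 15.6%, where Pus1 and Pus7l each had a lowest ratio of 0.28 over the alternatives. This class rests mostly on cluster 3, which had no megakaryocyte marker among its 10 leading genes, and without it 119 cKO and 63 WT cells remained, in which no member reached 100 UMIs. GMP-like cells had 1 of 10 (Pusl1) and none, beside 3.02% and 11.3%, and monocyte-like cells 2 of 10 (Pusl1 and Rpusd3) and none, beside 3.02% and 8.13%. Basophil/mast-like cells had 1 of 8 higher (Pus1) and none lower, beside 4.81% and 6.06%, and conventional dendritic-like cells none of 5 either way, beside 4.05% and 7.01%. Few members could be measured in the rest: plasma-like cells had none of 2 higher and 1 lower (Pus10), beside 4.29% and 34.5%, stromal/endothelial-like cells none of 2 higher and 1 lower (Pus7), beside 8.82% and 7.07%, and T/NK/ILC-like cells none of 1 either way, beside 10.3% and 5.19%. In the 8 classes with 5 or more measured members, the median of the synthase genes lay between 0.04 (HSC/MPP-like) and 0.23 (basophil/mast-like), and that of all genes between −0.13 and 0.03. The higher values of Rpusd3 in monocyte-like and of Pus1 in basophil/mast-like cells likewise fell below the fold under at least 1 alternative, with lowest ratios of 0.32 and 0.46. Since Pusl1 chose the family, nothing is read from these counts.

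**Figure D3:**
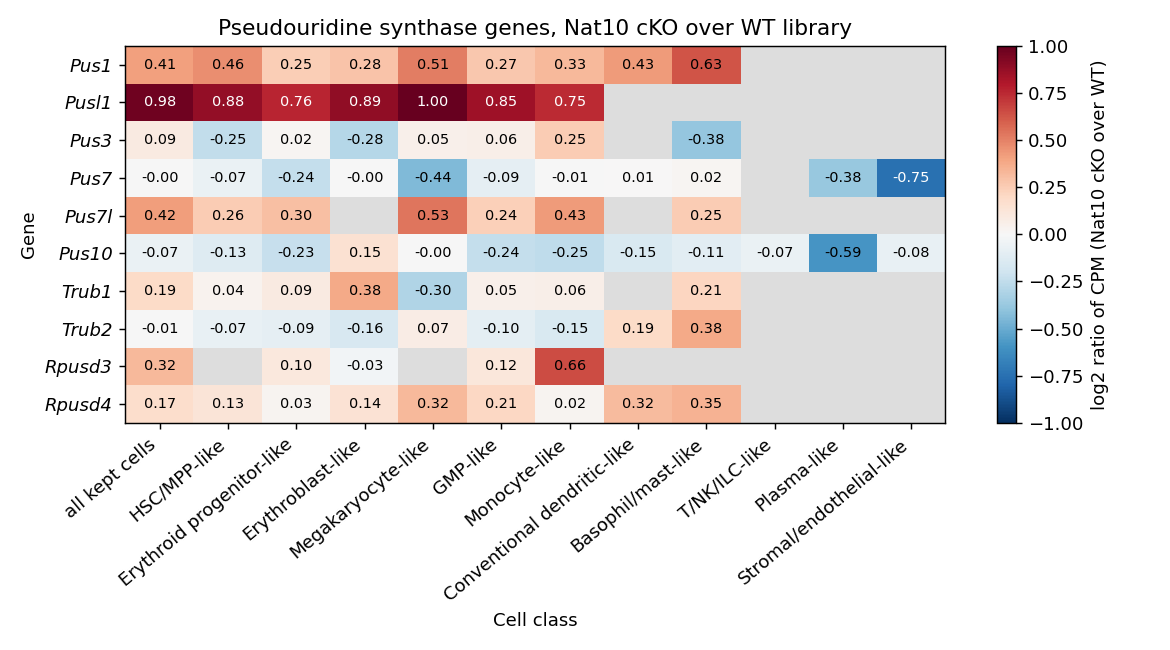
Log2 ratio of the Nat10 cKO over the WT library for each gene (rows) in all kept cells and each class (columns), red where higher and blue where lower in the cKO library; grey cells had under 100 UMIs. The Pusl1 row runs from 0.75 to 0.998 and the Pus1 row from 0.25 to 0.63, whereas Pus7 runs from −0.75 to 0.02 and Pus10 from −0.59 to 0.15 over the classes, and the signs of some values near 0 turn with the scaling.

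Pus1, which modifies cytosolic and mitochondrial transfer RNA and some messenger RNA, was higher in the cKO library in all 8 classes where it was measured, and the counting interval was above 0 in 7 of them. Erythroid progenitor-like cells held 53.3 CPM in the cKO and 45.0 CPM in the WT library (0.25, 0.19 to 0.30). HSC/MPP-like cells held 42.3 CPM in cKO and 30.7 CPM in WT cells (0.46, 0.22 to 0.70). Its highest class ratio was in basophil/mast-like cells, at 27.6 CPM in the cKO and 17.8 CPM in the WT library (0.63, lower bound 0.27). The direction was the same under every alternative tried in these classes, with 0.22 to 0.51 over all kept cells. Pus3, which acts on the anticodon arm of transfer RNA, was above 0 in 4 of 7 classes, and in none of the 7 did its interval leave 0. In GMP-like cells it stood at 11.8 CPM in the cKO and 11.3 CPM in the WT library.

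Pus7 and Pus7l, the TruD pair, took different values. Pus7 was lower in the cKO library in erythroid progenitor-like cells, at 91.1 CPM against 108 CPM in the WT library (−0.24, −0.28 to −0.20), and in megakaryocyte-like cells, at 71.7 CPM against 97.5 CPM in the WT library (−0.44, −0.61 to −0.28). Both were below 0 under every alternative tried, which ran from −0.27 to −0.08 and from −0.50 to −0.22. Its interval was also below 0 in GMP-like cells (−0.09), where the sign turned with the scaling, and in stromal/endothelial-like cells (−0.75, on 56 UMIs in the cKO and 60 in the WT library), where the leading clusters of the libraries differ and under 100 UMIs remained without the cluster that had no marker of the class among its 10 leading genes. In monocyte-like cells Pus7 stood at 51.6 CPM in the cKO and 51.9 CPM in the WT library, and in HSC/MPP-like cells at 70.5 CPM in cKO and 73.8 CPM in WT cells, with intervals that hold 0. Pus7 spans 43.1 kb, a bin whose median was −0.16 in erythroid progenitor-like and −0.23 in megakaryocyte-like cells, and the part of span in these ratios was not tested. Pus7l, the paralogue of Pus7, was higher in the cKO library in all 6 classes measured, with the interval above 0 in 4. Megakaryocyte-like cells held 16.8 CPM of Pus7l in the cKO and 11.6 CPM in the WT library (0.53, 0.13 to 0.95), and monocyte-like cells 10.5 CPM in cKO and 7.79 CPM in WT cells (0.43, 0.14 to 0.71).

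Pus10, which in human cells modifies transfer RNA and takes part in microRNA processing, was measured in all 11 classes and was above 0 in 1. It was lower in the cKO library in erythroid progenitor-like cells, at 63.0 CPM against 74.1 CPM in the WT library (−0.23, −0.28 to −0.19), in GMP-like cells, at 46.3 CPM against 54.5 CPM in the WT library (−0.24), and in monocyte-like cells, at 37.8 CPM against 45.0 CPM in the WT library (−0.25). These 3 ratios stayed below 0 under the alternatives tried, but came as near to 0 as −0.08, −0.03 and −0.12 when the median of genes of like span was taken off. Erythroblast-like cells gave the only value above 0, with 39.6 CPM in the cKO and 35.6 CPM in the WT library (0.15, 0.02 to 0.29), and that sign turned under a stricter cell filter and with the WT mix of clusters. Among its clusters, cluster 10, which had no erythroblast marker among its 10 leading genes, gave 0.42, and clusters 0.0, 0.3 and 21 gave −0.39, −0.47 and −0.06, while the shallow cluster 16 held 42.5 CPM in the cKO and 24.9 CPM in the WT library. Without the clusters that had no leading marker, 28.7 CPM in the cKO and 31.6 CPM in the WT library remained (−0.14). Plasma-like cells gave −0.59 (−1.15 to −0.05) on 52 UMIs in the cKO and 66 in the WT library, where the median cell held 15076 UMIs in the cKO and 1789 UMIs in the WT library, the leading clusters differ and the median of all genes was −0.34. Pus10 spans 67.2 kb, and in erythroid progenitor-like cells its ratio minus the median of its span bin was −0.08.

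Trub1, in human cells the main synthase of a common messenger RNA motif and an enzyme of the transfer RNA T-loop, had an interval above 0 in 2 of 7 classes and below 0 in 1. Erythroblast-like cells held 11.05 CPM in the cKO and 8.50 CPM in the WT library (0.38, 0.11 to 0.64), a value that was −0.01 with the WT mix of clusters and −0.03 without the clusters that had no leading marker. Megakaryocyte-like cells held 30.9 CPM in cKO and 38.2 CPM in WT cells (−0.30, −0.56 to −0.05), and this sign turned when every cell weighed alike. Erythroid progenitor-like cells held 35.0 CPM in cKO and 32.9 CPM in WT cells (0.09), above 0 under every alternative. Trub2, Rpusd3 and Rpusd4 serve mitochondrial RNA, and their human counterparts belong to a module around the large mitochondrial ribosomal RNA. Trub2 was near even in most classes, with 28.4 CPM in the cKO and 30.2 CPM in the WT library in erythroid progenitor-like cells (−0.09, −0.16 to −0.02, a sign that turned with the scaling) and 26.2 CPM in cKO and 20.1 CPM in WT cells in basophil/mast-like cells (0.38, 0.03 to 0.74). Rpusd3 was the scarcest member in UMIs and could be measured in 4 classes. Monocyte-like cells held 4.44 CPM of Rpusd3 in the cKO and 2.83 CPM in the WT library (0.66, 0.19 to 1.11, on 71 UMIs in the cKO and 99 in the WT library), and in the other 3 classes the interval held 0. Rpusd4 was above 0 in all 8 classes measured, with an interval above 0 only in GMP-like cells, and alternatives turned its sign in 4 classes. GMP-like cells held 19.8 CPM in the cKO and 17.1 CPM in the WT library (0.21, 0.06 to 0.35).

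The order of the classes by level was not used to choose the members. In both libraries, erythroid progenitor-like cells ranked first of the 11 classes for Pus1, Pus7, Pus10, Pusl1, Trub2, Rpusd3 and Rpusd4. For Pus1, Pus7, Pus10 and Pusl1 the interval of that first class did not overlap the next in either library. The share of all genes that rank first in this class was not determined, so no trait of the synthases is read from these ranks. Below it, neighbours in the order mostly overlapped: for Pusl1, GMP-like, megakaryocyte-like and monocyte-like cells lay at 25.5, 24.4 and 21.0 CPM in the cKO library and at 14.2, 12.2 and 12.5 CPM in the WT library, and each overlapped the next. Pus3 and Pus7l ranked first in megakaryocyte-like cells in both libraries, at 15.6 CPM in the cKO and 14.98 CPM in the WT library for Pus3 and 16.8 CPM in cKO and 11.6 CPM in WT cells for Pus7l. For Pus3 that level overlapped the next class in each library, and for Pus7l it overlapped in the WT library only. Trub1 ranked first in HSC/MPP-like cells in the cKO library (35.7 CPM) and in megakaryocyte-like cells in the WT library (38.2 CPM), each overlapping the next class. Erythroblast-like cells ranked last for Pus7l, at 2.05 CPM in the cKO and 1.52 CPM in the WT library.

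Within the erythroid classes, clusters were ordered by the summed level of adult haemoglobin genes, which no member enters. Pusl1 was at 35.5 CPM in the cKO and 24.2 CPM in the WT library in the cluster with the least haemoglobin (369 CPM of haemoglobin), at 17.1 CPM in cKO and 10.5 CPM in WT cells in the fifth, and at 3.85 CPM in cKO and 1.83 CPM in WT cells in the 12th (55232 CPM of haemoglobin). Pus1 was at 60.6 CPM in cKO and 50.8 CPM in WT cells in the first and at 13.9 CPM in cKO and 10.9 CPM in WT cells in the 12th, and Pus7 at 108 CPM in cKO and 130 CPM in WT cells in the first and at 24.7 CPM in cKO and 30.6 CPM in WT cells in the 12th. The 12th cluster was thus lower than the first for these genes, but the levels did not fall steadily in between. Haemoglobin UMIs take up part of the total, and their part in these levels was not tested. Pus7 was lower in the cKO library in each of the 5 erythroid progenitor-like clusters with the least haemoglobin, with ratios of −0.31 to −0.26, while Pusl1 was higher there, with 0.55 to 0.70. The fourth of them, number 17, was shallow, with a median of 2595 UMIs per cell, and its Pus7 interval held 0 (−0.63 to 0.08). The sixth cluster, number 10, had a median of 7575 UMIs per cell and 4421 CPM of haemoglobin, less than 2 of the clusters named erythroid progenitor-like (8373 and 8968 CPM). It was named erythroblast-like from markers outside its 10 leading genes, so the name is weak. In it Pus7 was at 112 CPM in the cKO and 81.7 CPM in the WT library (0.46, 0.20 to 0.72) and Pus10 at 101 CPM in cKO and 75.9 CPM in WT cells (0.42, 0.15 to 0.69), while Pusl1 had 15 UMIs in the cKO and 5 in the WT library. The 13th cluster had the most haemoglobin among those described here (72453 CPM) and was shallow, with a median of 1668 UMIs per cell. Its Pusl1 level was 23.2 CPM in the cKO and 9.34 CPM in the WT library, on 18 UMIs in the cKO and 3 in the WT library, and its Pus1 level 43.8 CPM in the cKO and 12.5 CPM in the WT library, on 34 UMIs in the cKO and 4 in the WT library.

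**Figure D4:**
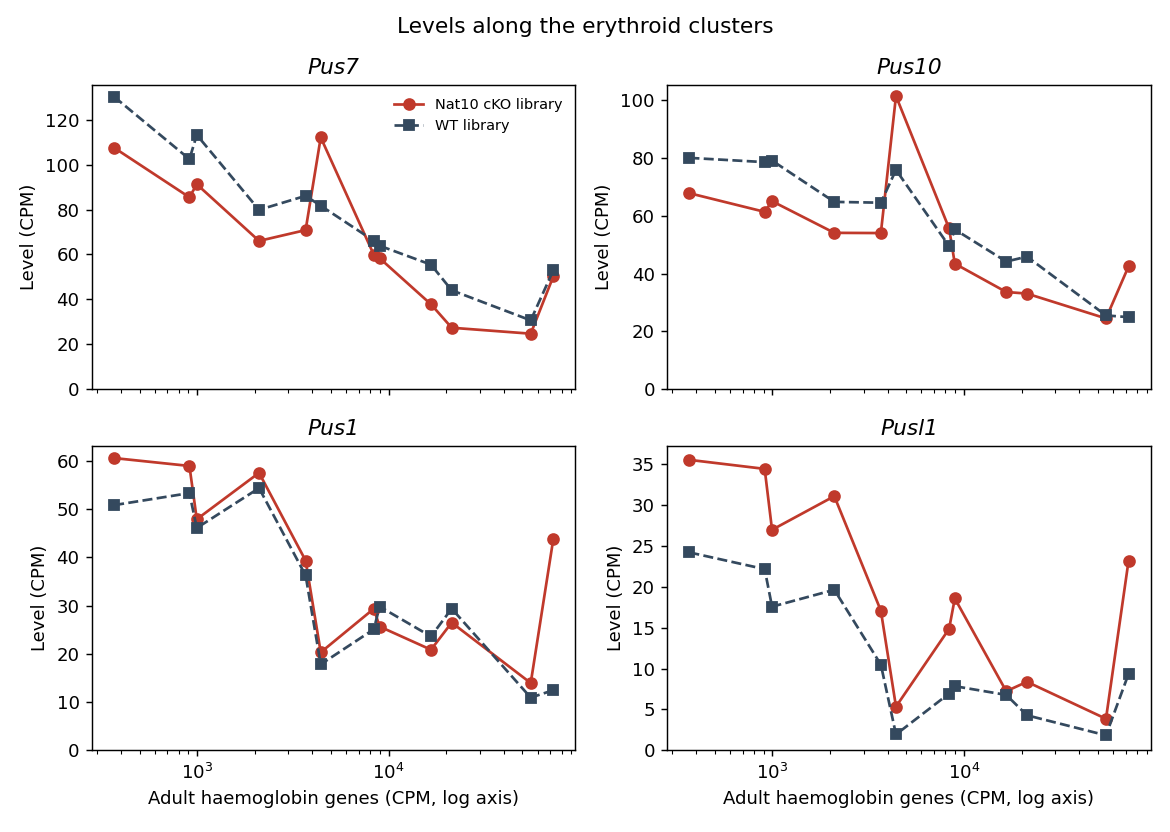
Level in CPM (vertical axes) of Pus7, Pus10, Pus1 and Pusl1 in the erythroid clusters with at least 50 cells in each library, ordered by the level of adult haemoglobin genes (horizontal log axis), in the Nat10 cKO library (red circles) and the WT library (dark blue squares). Each gene is lower in the cluster at 55232 CPM of haemoglobin than in the first cluster, with Pusl1 at 3.85 against 35.5 CPM in the cKO library. Pus7 and Pus10 peak in the sixth cluster in the cKO library, for Pus7 close to the level of the first cluster (108 CPM). In the WT library both are higher in the first cluster than in the sixth.

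A UMI of Pusl1 was found in 32.3% of kept cKO cells and 18.9% of kept WT cells, shares that depend on depth. With every cell thinned to 2000 UMIs, and 1154 cKO and 2293 WT shallower cells left out, the shares were 3.61% of 9541 cKO cells (3.24 to 4.0) and 1.98% of 9652 WT cells (1.71 to 2.28). In erythroid progenitor-like cells the thinned shares were 5.45% of cKO and 3.77% of WT cells, and in T/NK/ILC-like cells 1.22% of cKO and 0.96% of WT cells. Median depths before thinning were 39504 UMIs in cKO and 40614 UMIs in WT erythroid progenitor-like cells, and 4783 UMIs in cKO and 6237 UMIs in WT T/NK/ILC-like cells. No class is known to lack these genes, so the T/NK/ILC-like share is not a measured background. Pus1 was found in 7.5% of thinned cKO and 5.64% of thinned WT cells, and Pus7 in 11.7% of cKO and 11.4% of WT cells. The most UMIs of Pusl1 in 1 cell were 10 in the cKO and 7 in the WT library.

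Other genes of the pathway were described from lists. The remaining synthases Rpusd1, Rpusd2 and Dkc1 had log2 ratios of 0.13, 0.35 and 0.31 over all kept cells, a median of 0.31. Dkc1 was at 196 CPM in the cKO and 158 CPM in the WT library. All 6 genes of the H/ACA guide complex, in which Dkc1 is the synthase, were above 0, with a median of 0.35, of which Nhp2 was the highest, at 405 CPM in the cKO and 264 CPM in the WT library (0.62), and Shq1 the lowest (0.01). In HSC/MPP-like cells Nhp2, Nop10 and Gar1, which sit on the finished particle with dyskerin, were at 0.75, 0.51 and 0.48, and the assembly factors Naf1 and Shq1 at −0.23 and −0.26. These genes were named after their values were seen. In this class the median of all genes also differed by span, at 0.22 under 3 kb and −0.22 at 30 to 100 kb. The part of span in these ratios was not tested. The signs of Nhp2, Nop10, Gar1, Naf1 and Shq1 were the same in megakaryocyte-like, erythroid progenitor-like, GMP-like, monocyte-like and conventional dendritic-like cells. In GMP-like, monocyte-like and conventional dendritic-like cells, however, the intervals of both Naf1 and Shq1 held 0. The median of all genes was −0.13 in GMP-like and −0.10 in erythroid progenitor-like cells, and whether signs near 0 hold under other scalings was not tested for these genes. Naf1 and Shq1 were at −0.21 and −0.45 in megakaryocyte-like and at −0.03 and −0.12 in erythroid progenitor-like cells, where the interval of Naf1 held 0. Other classes differed: in erythroblast-like cells Naf1 and Shq1 were at 0.092 and 0.22, and in plasma-like cells Nhp2, Nop10 and Gar1 were at −0.56, −0.60 and −1.11. Basophil/mast-like cells had Naf1 at −0.41 but Shq1 at 0.14, and T/NK/ILC-like cells had Gar1 at −0.09, the last 2 with intervals that held 0. In plasma-like cells the median of all genes was −0.34, the depth of the libraries differed, and Gar1 had 34 UMIs in the cKO and 62 in the WT library. The mitochondrial module of Ngrn, Rcc1l, Fastkd2, Rpusd3, Rpusd4 and Trub2 had a median of 0.21 with 5 of 6 above 0, and Fastkd2 was the highest, at 35.0 CPM in the cKO and 27.2 CPM in the WT library. The 17 other genes of mitochondrial RNA modification had a median of 0.06, with 10 above 0. Other transfer RNA modification genes had a median of 0.16 with 35 of 48 above 0, from Thg1l (0.62) to Trdmt1 (−0.29), and the 4 proteins of the box C/D guide complex a median of 0.29. Past the fold of 0.5 on the higher side were 1 of 6 H/ACA genes, 1 of 17 other mitochondrial genes and 1 of 48 transfer RNA genes, and none on the lower side, to be set beside the 6.20% and 15.7% of all genes. The list medians and counts above are over all kept cells, so they join ratios within classes with the mix of classes. In erythroid progenitor-like cells the medians were 0.09 (remaining synthases), 0.20 (H/ACA), 0.06 (mitochondrial module), −0.06 (other mitochondrial), 0.01 (transfer RNA) and 0.13 (box C/D). In HSC/MPP-like cells they were, in the same order, 0.46, 0.42, 0.23, −0.03, 0.11 and 0.34.

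Over 22 points, the 11 classes in each of the 2 libraries, the genes with the pattern of log2(CPM + 1) most like that of each synthase were ranked among 9110 candidates by Pearson's r. These points share libraries, depths and base composition, so r is a description. Pusl1 was nearest to Fam136a (0.95), Lap3 (0.95) and Gpatch4 (0.95), and its closest fellow member was Pus1 (0.90). Pus1 was nearest to Grwd1 (0.97), Npm1 (0.97) and Rrs1 (0.96). Pus7 was nearest to Cad (0.93), Kars (0.93) and Tomm70a (0.93), with Pus10 (0.88) as its closest member, and Pus10 was nearest to Tomm70a (0.92), Polr1c (0.90) and Nsun2 (0.90). Rpusd4 was nearest to Dnttip2, Pdha1 and Nob1 (each 0.93), Rpusd3 to Eprs (0.94), Trub1 to Smyd2 (0.96), Trub2 to Mesd (0.91), Pus7l to Mtap (0.91) and Pus3 to Cluap1 (0.89).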

How the data were processed

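Both matrices were deposited by the authors as raw counts of UMIs, for 56748 genes per library, and held whole numbers only. Per the submitters' processing notes, Cell Ranger 7.1.0 and the mm39 genome were used; strand settings and cell calling are not stated. Groups follow the labels. Barcodes under 1000 UMIs or 500 genes or over 10% mitochondrial UMIs were dropped. Scrublet in scanpy 1.11.5 (expected share 8%) then removed 544 cKO (4.84%) and 592 WT barcodes (4.72%).

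All cells were clustered jointly, with no integration: 10000 scaled UMIs per cell, 2000 variable genes, 30 components, 15 neighbours and Leiden resolution 1.5, with leidenalg 0.10.2, igraph 0.11.9, scikit-learn 1.9.0 and anndata 0.12.19. Of 55 clusters, 43 were named into 16 classes from markers of 18 classes, by the most markers among 10 leading genes with at least 3 detected, or, for 5 clusters with none among the 10 (3, 10, 31, 0.1 and 0.5), by the class with the highest share of its markers detected, if at least 50%; mixed clusters of 200 cells or more were split at resolution 0.5. Unnamed clusters held 1845 cKO and 2781 WT cells. The naming rules were refined after the clusters were seen. The synthase genes and the lists were chosen with earlier results of these data known.

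Summed UMIs per library and class were scaled to CPM, and log2 ratios (cKO over WT) were computed after adding 0.5 to each sum. A gene counts as measured from 100 UMIs over both libraries, and past the fold means a log2 ratio of at least 0.5 either way. A single library per genotype allows no test, and cells were never treated as replicates. Intervals (95%) are exact: Poisson for levels, binomial for shares, conditional binomial for ratios. They cover counting error only. Named genes are the 10 synthases, the ends of each list and the 3 genes most like each synthase with a mean of at least 10 CPM; Pusl1's neighbours and other pathway genes were named after their values were seen. Spans and neighbours came from GENCODE vM21 (91.8% of gene IDs found), whose build differs from that of the files. Alternatives changed scaling, the weight of cells, doublets, filter, mix of clusters, resolution, floor, fold, span and thinning; leaving those 5 clusters out of their classes was added after the data were seen. The ratio, its interval, TMM scaling and the fold call were tested on simulated sums that held counting error only. The filter, doublet calls, clusters, names and other steps were not tested in this way (Python 3.11.15, numpy 2.4.6, pandas 2.3.3, scipy 1.17.1, matplotlib 3.10.9).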

Additional observations from a re-analysis of the deposited data

Results flagged for a closer look

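Ratios of 3 genes had counting intervals on opposite sides of 0 in different classes. With 1 library per genotype the difference between classes was not tested. Pus10 was below 0 in plasma-like (−0.59), monocyte-like (−0.25), GMP-like (−0.24) and erythroid progenitor-like cells (−0.23) and above 0 in erythroblast-like cells (0.15). Trub1 was below 0 in megakaryocyte-like cells (−0.30) and above 0 in erythroid progenitor-like (0.092) and erythroblast-like cells (0.38). Trub2 was below 0 in erythroid progenitor-like cells (−0.089) and above 0 in basophil/mast-like cells (0.38). Both erythroblast-like values, the megakaryocyte-like value of Trub1 and the erythroid progenitor-like value of Trub2 turned sign under at least 1 alternative.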

How the results depend on the processing

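Over 10 alternatives, 832 ratios were computed again, of which 734 stayed within the counting interval of the ratio given and 98 moved outside it. Among these 832, none of the ratios past the fold changed sign. Megakaryocyte-like ratios without cluster 3 were not among them, for lack of UMIs. Of the higher ratios, Pus1 in basophil/mast-like, Pus1 and Pus7l in megakaryocyte-like and Rpusd3 in monocyte-like cells fell below 0.5 under at least 1 alternative. The ratio of Pusl1 stayed above 0.5 in all 6 classes, with lowest and highest values of 0.68 and 1.17 in erythroblast-like, 0.66 and 0.86 in erythroid progenitor-like, 0.78 and 0.97 in GMP-like, 0.73 and 1.13 in HSC/MPP-like, 0.74 and 1.16 in megakaryocyte-like and 0.67 and 0.79 in monocyte-like cells. Over all kept cells it was 1.07 with TMM scaling, 1.05 with median-of-ratios scaling and 0.74 with the WT mix of clusters. TMM took −0.10 as the common shift of all genes in all kept cells and −0.13 in HSC/MPP-like cells. With TMM scaling 3 members were past the fold on the higher side in all kept cells, and with a fold of 0.3 these were 4. Of the pairs of member and class, 10 were past the fold higher and 2 lower; with a fold of 0.3 these were 19 and 6. The 2 lower pairs became 1 with TMM scaling, with median-of-ratios scaling, with called doublets kept, with the WT mix of clusters and without the clusters that had no marker of their class among their 10 leading genes (an alternative chosen after seeing the data, with 7 higher), 4 when every cell weighed alike, 0 under the stricter filter and 9 without a floor. With every cell weighed alike, Pusl1 in all kept cells was at 18.0 CPM in the cKO and 9.02 CPM in the WT library. Its share of cells at 4000 UMIs was 7.30% in the cKO and 3.60% in the WT library, and without thinning 32.3% in the cKO and 18.9% in the WT library. The causes of these moves were not tested. The stricter filter gave 83, resolution 2.5 gave 80 and leaving out those clusters gave 74 of the 85 ratios. No paired analysis was possible because each genotype has 1 library. Depth limits the rarer classes: Pusl1 had under 100 UMIs in 5 of 11.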
